A study of Mus musculus with 12 samples.

Results

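2 lists of AGO2 peaks from the cerebellum of 15-day-old (P15) mice were compared site by site. One list was deposited for the series as a whole and held 5173 peaks, called the series list here. The other was deposited with the second P15 target library and held 1624 peaks, called the replicate 2 list. A peak was counted as shared where it overlapped a peak of the other list by at least 1 nt on the same strand. By this rule 1065 series list peaks (20.6%) and 1060 replicate 2 list peaks (65.3%) were shared, 4108 peaks were in the series list only and 564 were in the replicate 2 list only. Together the lists held 6797 of the 11681 peaks in the 3 lists of the series, the third being the list for 7-day-old (P7) animals with 4884 peaks. The labels name a list of the series list's kind under the first P15 target library. Whether it also rests on the second is not stated, so the lists were not treated as replicates. Shared peaks were chosen by their position in both lists, so the counts above are descriptions.

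The mice were homozygous for a conditional Spy3-Ago2 allele, while the genotype field of the labels reads WT. An AAV carrying Cre under L7, a promoter of Purkinje cells, was injected into the brain ventricles of newborn pups, and whole cerebella were taken at P7 or P15. P7 and P15 target libraries shared allele, virus and pull-down. Tagged AGO2 was captured on a SpyCatcher3 resin, so the purity of the Purkinje cell signal rests on where Cre was expressed. The number of animals in a library is not given in the sources used here.

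AGO2 carries miRNAs, which pair with messenger RNAs mainly through bases 2 to 8, the seed, and mainly in 3' UTRs, where they lower stability and translation. A peak is a stretch of RNA where reads of the pull-down pile up, so its width reflects fragment length as well as the binding site. Pumilio proteins, which repress mRNAs of neurons, bind 3' UTRs at a short motif, written TGTANATA here with N for any base. Purkinje cells send the output of the cerebellar cortex and are known for large calcium signals in their dendrites.

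Sequences of sites at which the lists met are shown first. These 4 shared 3' UTR sites were among those with the longest overlap and the Pumilio-type motif, which is in capitals, and were chosen after the matches had been counted. Each window is 30 bases on the transcript's strand, read 5' to 3' from GENCODE M21 transcripts of mm10.
Kif1b (chr4:149176495-149176524, minus strand): atgttttatttTGTAAATAtctaatgtttg
Arhgef10l (chr4:140514536-140514565, minus strand): tgtatattataTGTATATAaatatgatctg
Zic1 (chr9:91360655-91360684, minus strand): caaccacacaaTGTATATAattcctagttt
Gabra6 (chr11:42307009-42307038, minus strand): tacaaattttcTGTAAATAatattaataat

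The Kif1b site, in the 3' UTR of a kinesin gene, was covered by a 229-nt series list peak and a 139-nt replicate 2 list peak. At Zic1, a transcription factor of granule cells, the peaks were 118 and 85 nt wide. At Gabra6, the GABA receptor subunit of granule cells, they were 76 and 78 nt, and at Arhgef10l, a guanine nucleotide exchange factor, 89 and 84 nt. The sites of Kif1b, Arhgef10l and Zic1 also overlapped a P7 peak, and that of Gabra6 did not.

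A second set shows coding sites at which transcript bases just past the peak's 3' end match the start of the library's 3' adapter. The fixed part of that adapter follows random bases, and its first 6 bases are in capitals in every line. The first 3 sites are the widest such peaks among shared coding peaks, and the next 3 among coding peaks of the replicate 2 list only. The first 16 bases of each site belong to the peak and the capitals begin 2 or 4 nt after its end.
Adapter, fixed part as DNA: TGGAATtctcgggtgccaagg
Itm2b, shared (chr14:73366385-73366414, minus strand): gatctttgaggaagacgcagTGGAATtcat
Rack1, shared (chr11:48802367-48802396, plus strand): gacaagaccataaagttaTGGAATactctg
Kif1b, shared (chr4:149247807-149247836, minus strand): ttgctctattacatcaaggaTGGAATtaca
Rtn1, replicate 2 list only (chr12:72308790-72308819, minus strand): gaggactctgcatactttacTGGAATtctt
Dclk1, replicate 2 list only (chr3:55487880-55487909, plus strand): ctgaactgtatcttgtaaTGGAATtagtga
Hnrnpa2b1, replicate 2 list only (chr6:51466646-51466675, minus strand): gtgaagaagctgtttgttggTGGAATtaag

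The sets differed in where their peaks lay. In the series list only, 2265 of 4108 peaks were in 3' UTRs (55.1%) and 1601 in coding exons (39.0%), while 2.56% were outside annotated genes and 0.682% in introns. Among shared series list peaks, 29.6% were in 3' UTRs and 8.73% in coding exons, against 42.0% outside genes and 10.1% in introns. In the replicate 2 list only, 17.2% of 564 peaks were in 3' UTRs, 19.7% in coding exons, 11.3% in other exons (mainly of non-coding genes), 8.87% in introns and 41.3% outside genes. Protein-coding genes thus held 96.3% of the series list only peaks, 48.2% of the shared series list peaks and 47.2% of the replicate 2 list only peaks.

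**Figure D1:**
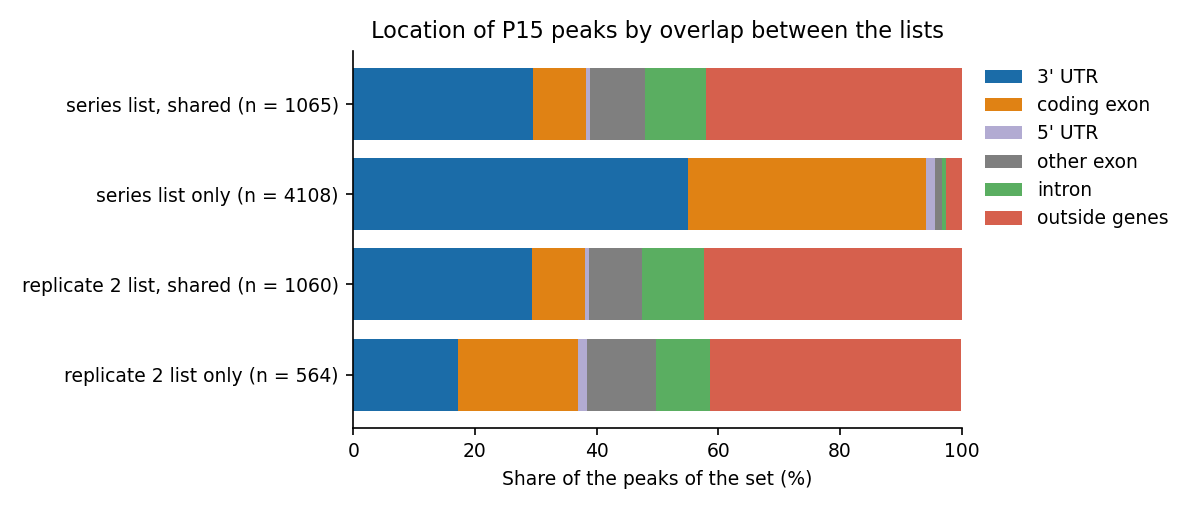
Location of the peaks of each set as a share of the set (horizontal axis, percent), with 1 bar per set and 1 colour per location. 3' UTRs and coding exons fill most of the bar of the series list only, and peaks outside genes make up over 40% of each of the other bars.

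Read by location, the share of series list peaks that met the replicate 2 list ran from 5.49% in coding exons (93 of 1694, exact 95% interval 4.45 to 6.68) and 12.2% in 3' UTRs (315 of 2580, 11 to 13.5) to 79.4% in introns (108 of 136, 71.6 to 85.9) and 81.0% outside genes (447 of 552, 77.5 to 84.2). Seen from the replicate 2 list the order was another. There 76.3% of 3' UTR peaks (312 of 409, 71.9 to 80.3), 68.4% of intron peaks, 65.8% of peaks outside genes, 59.0% of other exon peaks and 45.3% of coding exon peaks (92 of 203, 38.3 to 52.4) met the series list. Coding exons were the location with the lowest share in both lists. In the replicate 2 list, 5' UTR peaks were close to them at 47.1% (8 of 17, 23 to 72.2), within counting error. The replicate 2 list held 203 coding exon and 409 3' UTR peaks, but 681 outside genes. These numbers limit how many of the 1694, 2580 and 552 series list peaks there could be met. The series list shares therefore do not compare how well sites of each location recur. Intervals cover counting error only, peaks of 1 gene share their transcript, and no test was made between the sets.

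**Figure D2:**
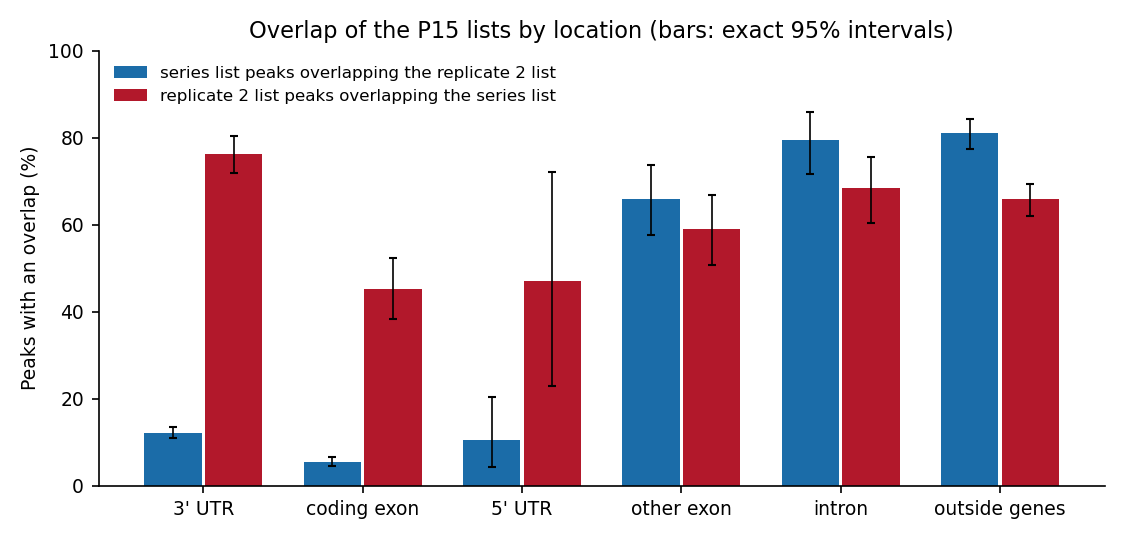
Share of peaks with an overlap in the other list (vertical axis, percent) by location, blue for the series list and red for the replicate 2 list, with exact 95% intervals as error bars. In 3' UTRs the blue bar stands at 12.2% and the red bar at 76.3%, whereas outside genes they stand at 81.0% and 65.8%. The number of replicate 2 list peaks at a location limits the height of its blue bar.

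Peaks of the series list only were wider, with a median of 54 nt (quartiles 40 and 75), than shared series list peaks at 41 nt (26 and 63). In the replicate 2 list, shared peaks had a median of 34 nt (26 and 49) and unshared peaks of 31 nt (25 and 51). Width also went with location. Shared series list peaks in introns and those outside genes had a median of 26 nt each, and in 3' UTRs of 58 nt, next to 54 nt for 3' UTR peaks of the series list only. Peaks outside genes that were in the series list only had a median of 44 nt, and in the replicate 2 list only of 25 nt. Of the 377 series list peaks of 15 to 30 nt in introns or outside genes, 360 (95.5%, 92.9 to 97.4) met the replicate 2 list, while of the 368 exon peaks of that width 32 did (8.70%, 6.02 to 12.1). In the replicate 2 list the same widths gave 62.5% of 586 and 62.7% of 161. Here too, the smaller number of replicate 2 list peaks in exons limits the share of series list exon peaks that could be met.

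**Figure D3:**
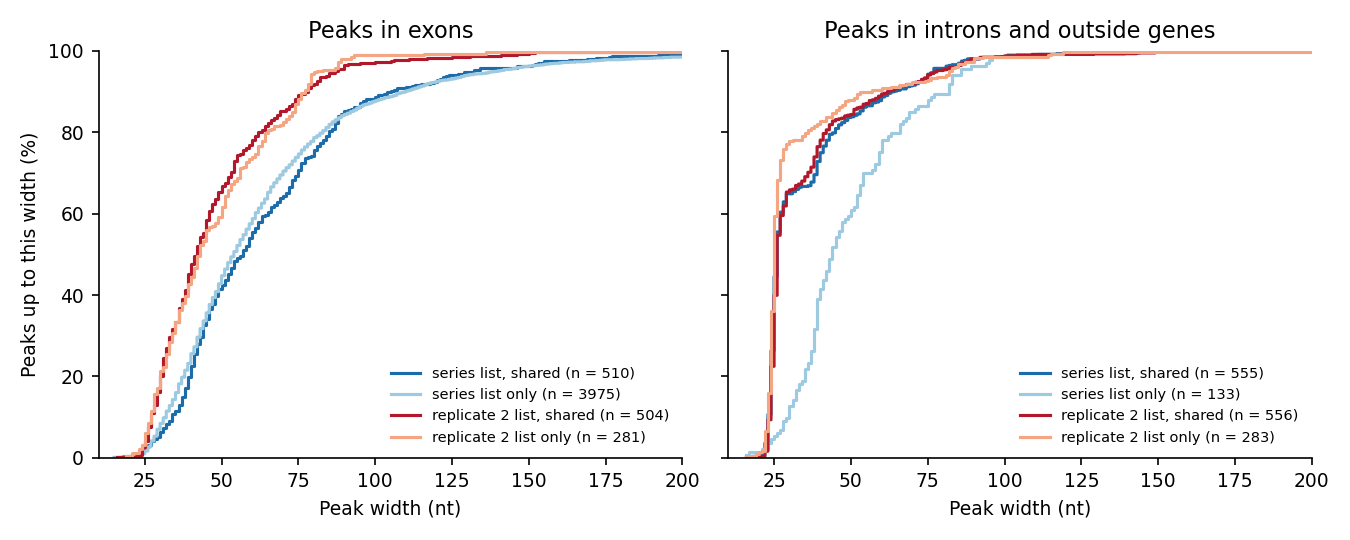
Cumulative share of peaks (vertical axis, percent) up to each width (horizontal axis, nt) for the 4 sets, in exons on the left and in introns and outside genes on the right. On the right the shared peaks of both lists rise together near 26 nt while the 133 peaks of the series list only rise later, and on the left both replicate 2 list curves lie at smaller widths than both series list curves.

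Of the 5173 series list peaks 4108 were unshared, and so were all of the 5 widest. They lay in the 3' UTR of Cdk16, a cyclin-dependent kinase (432 nt), a coding exon of Ajm1 (396 nt), and the 3' UTRs of Klf13, a transcription factor (362 nt), Syngr1, a synaptic vesicle protein (347 nt), and Shank1, a postsynaptic scaffold (347 nt). Of the 5 widest peaks of the replicate 2 list, 3 were shared, beside 65.3% of all its peaks. Among these 3 was the 234-nt peak in the 3' UTR of Adcy1. The widest, 335 nt in the non-coding gene Gm26917, was unshared.

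How closely the lists placed a shared site also went with location. The shared peaks formed 1071 overlapping pairs, of which 275 (25.7%) had the same start and end in both lists. Outside genes 42.4% of 450 pairs were identical, and 90.0% had 5' ends and 91.1% had 3' ends within 2 nt. In introns 46.3% of 108 pairs were identical. In 3' UTRs 6 of 316 pairs (1.90%) were identical, 24.7% had 5' ends and 38.3% had 3' ends within 2 nt, and the series list peak was the wider in 75.3%, by a median of 10 nt over all 3' UTR pairs. In the 93 pairs of coding exons the ends differed in how often they met: 3' ends lay within 2 nt in 74.2% (64.1 to 82.7) and 5' ends in 37.6% (27.8 to 48.3). Gene by gene, the longest shared 3' UTR site of Itpr1, on chromosome 6, ran from 108549919 to 108549990 in the series list and from 108549920 to 108549988 in the replicate 2 list. That of Atp2a2, on chromosome 5, ran from 122453543 to 122453605 and from 122453544 to 122453603. At Adcy1, on chromosome 11, the series list peak (7172696 to 7172847) began inside the wider replicate 2 list peak (7172610 to 7172843).

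Few unshared peaks were near misses. Of the series list only peaks, 16 of 4108 (0.389%) lay within 20 nt of a replicate 2 list peak on the same strand, and 10.5% within 1000 nt. Of the replicate 2 list only peaks, 6 of 564 (1.06%) lay within 20 nt of a series list peak and 16.5% within 1000 nt. Of unshared peaks inside genes, 27.1% of those in the series list only and 47.1% of those in the replicate 2 list only were in a gene with a peak in the other list. On the opposite strand, 2 peaks of each list overlapped a peak of the other list.

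By gene, 1810 genes had a series list peak and 676 a replicate 2 list peak, and 515 had both, which is 28.5% of the former and 76.2% of the latter. Among the 22028 protein-coding genes annotated, 7.79% had a series list peak and 2.49% a replicate 2 list peak. Of the protein-coding genes of the series list 445 (25.9%) were also in the replicate 2 list, and these were 81.1% of the protein-coding genes of that list. Of the 515 genes in both lists, 454 held a shared peak and 61 held peaks at different sites only. The series list held 72.3% of the 541 genes with 1 replicate 2 list peak (68.3 to 76), 91.4% of the 116 with 2 or 3 (84.7 to 95.8) and 18 of the 19 with 4 or more. In the other direction the replicate 2 list held 23.5% of 1037 genes with 1 series list peak, 47.8% of 134 with 5 to 9 and 40% of the 70 genes with 10 or more.

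**Figure D4:**
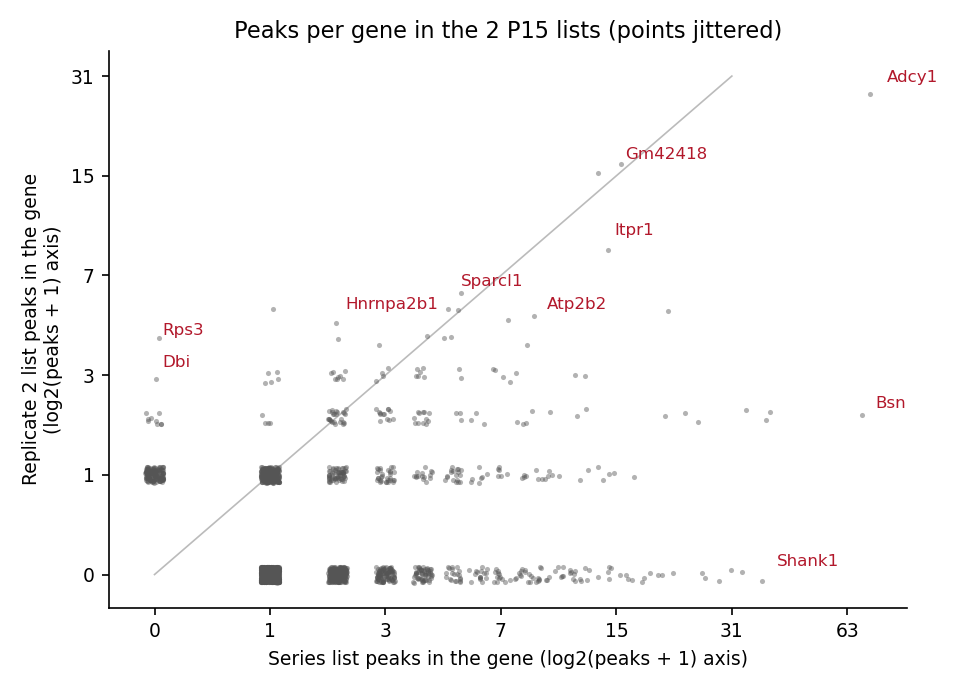
Peaks per gene in the series list (horizontal axis) and the replicate 2 list (vertical axis), both on log2(peaks + 1) axes with peak numbers as labels, 1 jittered point per gene and a line where both lists hold the same number. Adcy1 stands at 76 and 28, Bsn at 71 and 2 and Shank1 at 39 and 0, while Rps3 stands at 0 and 4.

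The gene with most shared peaks was Adcy1, the calcium-stimulated adenylyl cyclase, with 76 series list peaks, 27 of them shared, and 28 replicate 2 list peaks, 25 of them shared. Itpr1, the calcium release channel of the endoplasmic reticulum, had 14 and 9 peaks with 7 shared in each list. Its 7 replicate 2 list peaks in the 3' UTR equalled the 7 of the series list, and in coding exons it had 2 and 7. Atp2b2, the calcium pump of the plasma membrane, had 9 and 5 peaks, all in the 3' UTR, and each of the 5 was shared. Atp2a2, the calcium pump of the endoplasmic reticulum, had 7 and 5 with 4 shared. Of the other genes with most shared peaks, Atp1b1, a sodium pump subunit, had 7 and 3 peaks, Gpm6b, a membrane proteolipid, 8 and 4, and Scd2, a fatty acid desaturase, 4 and 4, all in 3' UTRs. All replicate 2 list peaks of these 3 genes were shared, beside 76.3% of all 3' UTR peaks of that list. The genes of this paragraph were ranked by their shared peaks, so high shared counts follow from that choice.

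Of the 10 genes with most series list peaks, 5 had 0 replicate 2 list peaks, 4 had 2, and Adcy1 had 28. Among all 1810 genes of the series list, 1295 (71.5%) had 0 replicate 2 list peaks. Of the 70 genes with 10 or more series list peaks, 28 (40%) had a replicate 2 list peak. Bsn, a presynaptic active zone scaffold, had 71 series list peaks, 56 in coding exons, and 2 replicate 2 list peaks, both shared. The postsynaptic scaffolds Shank1, Shank3 and Shank2 had 39, 33 and 26 series list peaks, of which 35, 25 and 17 were in coding exons, and 0 in the replicate 2 list. Hcfc1, a transcriptional coregulator, had 32, of which 31 were in coding exons, and Prrc2a 29, of which 27 were, with 0 replicate 2 list peaks each. Apc2, a microtubule-binding protein, had 25, Epb41l1, a membrane skeleton protein, 21, Dab2ip, a Ras GTPase activator, 20, and Cbarp, a calcium channel regulator, and Ski, a transcriptional corepressor, 19 each, again with 0 in the replicate 2 list. Prrc2b and Tbc1d16 had 38 series list peaks each and Adgrl1, an adhesion receptor, 34, and all 3 had 2 replicate 2 list peaks, both shared. The 70 genes with 10 or more series list peaks held 698 of the 1601 coding exon peaks of the series list only (43.6%, 41.2 to 46.1) and 24 of the 93 shared ones (25.8%, 17.3 to 35.9). In 3' UTRs they held 18.3% and 14.6%.

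Genes in the replicate 2 list only had few peaks, with 150 of 161 (93.2%) holding 1, beside 541 of all 676 genes of that list. Rps3, a ribosomal protein, had 4 and Dbi, an acyl-CoA-binding protein, 3. Aplp1, a relative of the amyloid precursor, Cst3, a secreted protease inhibitor, Eef2, the translation elongation factor, Pdia3, a protein-folding enzyme, Rab3a, a synaptic vesicle GTPase, Shf, Sidt1 and the non-coding Gm26561 had 2 each. The peaks of Eef2 and Pdia3 were all in coding exons. Some genes in both lists were weighted to the replicate 2 list: Hnrnpa2b1, an RNA-binding protein, had 2 series list peaks, both shared, and 5 replicate 2 list peaks, 3 of them unshared in coding exons. Snap25, a protein of vesicle fusion, had 1 and 5, and Syp, a synaptic vesicle protein, 1 and 3, and both were chosen after their values had been seen. The reverse held for genes in both lists without a shared peak, of which Grm4, a glutamate receptor of granule cells, had 13 and 1, Mapk8ip1, a kinase scaffold, 9 and 1, and Maz, a transcription factor, 8 and 1.

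The 17 gene lists used here differed in how many of their members the replicate 2 list held. Of 37 chromatin regulators and transcription factors, 28 had a series list peak and 4 a replicate 2 list peak, all 4 within the 28. Those 4 were Rora (11 and 3 peaks), Camta1 (8 and 3), Nsd1 and Bcl11a, while Arid1a had 9 and 0 and Ncor1 8 and 0. Of 33 postsynaptic scaffolds and receptors, most of them of excitatory synapses, 21 and 7 had peaks, with 188 peaks in the series list and 7 in the replicate 2 list. Dlgap3 had 16 and 0, and Nlgn2, the neuroligin of inhibitory synapses, 14 and 1. Of 25 presynaptic proteins, 20 and 12 had peaks and 11 were in both lists, among them Syngr1 (10 and 2) and Nrxn2 (9 and 1). Of 29 ion channel genes, 15 and 8 had peaks, all 8 in both, with Cacna1g at 16 and 1, Scn2a at 10 and 1 and Kcna2 at 8 and 2. Of 30 signalling enzymes, 19 and 11 had peaks and 10 were in both, with Dgkz at 22 and 2 and Gsk3b at 8 and 1. These counts stand beside 7.79% of all protein-coding genes with a series list peak and 2.49% with a replicate 2 list peak. Of the protein-coding genes of the series list, 25.9% were also in the replicate 2 list.

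Of 37 dendrite and cytoskeleton genes, 22 and 12 had peaks and 9 were in both. Ank3, an ankyrin of the axon initial segment, had 14 and 1, and Ank1 12 and 0. The tubulin genes Tuba1a, Tubb3 and Tubb4a were the 3 members in the replicate 2 list only, with 1 peak each. Of 32 RNA-binding proteins, 22 and 8 had peaks, all 8 in both, with Pum2, a Pumilio protein, at 7 and 1, Qk at 6 and 1, and Celf4 at 4 and 2. Of 25 miRNA pathway genes, 2 had peaks, in both lists, namely Tnrc6b (8 and 1) and the helicase gene Ddx6 (3 and 1). Their 8% of the list stands beside 7.79% of all protein-coding genes with a series list peak and 2.49% with a replicate 2 list peak. Of 30 ribosomal proteins and translation factors, 6 and 5 had peaks and 1 was in both, while Rps3, Eef2, Rpl32 and Rpl4 were in the replicate 2 list only. Of 20 ataxia genes, 8 and 3 had peaks and 2 were in both, Itpr1 among them, with Cic, a repressor, at 16 and 0.

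Markers of cell types were read the same way. Of 28 Purkinje cell markers, 15 had a series list peak and 8 a replicate 2 list peak, all 8 in both lists, with 53 and 18 peaks. Over all protein-coding genes 7.79% had a series list peak and 2.49% a replicate 2 list peak, and 25.9% of the former were in both. Itpr1, Rora, Calb1 (3 and 1) and Ppp1r17 (2 and 1) were among them, while 13 markers, Pcp2, Pvalb and Pcp4 among them, had 0 peaks in either list. Of 21 granule cell markers, 17 and 10 had peaks and 9 were in both, with 53 and 21 peaks. Neurod1, a granule cell transcription factor, had 7 and 3, Zic1 5 and 4, Gabra6 4 and 3, Cntn2 8 and 0, and Slc17a7, the vesicular glutamate transporter of granule cells, 0 and 2. Of 14 Bergmann glia and astrocyte markers, 9 and 5 had peaks, with 4 in both lists and 5 in the series list only. Sparcl1 had 5 and 6 peaks, Slc1a2 3 and 2 with 0 shared, Hopx 2 and 2, and Ptprz1 4 and 0. Of 12 oligodendrocyte markers, 5 and 3 had peaks, of 8 molecular layer interneuron markers 1 and 0, and of 16 vascular and microglial markers 2 and 1. Granule cell and glial markers thus lay in the sets beside Purkinje cell markers, and their part in the overlap was not tested. A list entry gives no level of RNA, so fewer cells of a type and less RNA per cell cannot be told apart. Tagged AGO2 was captured from whole cerebella, and the lists do not show which cells a peak came from.

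Genes of small structured RNAs held part of the exon peaks outside mRNAs. The 34 snRNA gene peaks of the replicate 2 list lay on 34 genes, and 30 of them were in that list only, against 5 snRNA peaks in the series list, 4 of them shared. snoRNA genes had 12 series list and 21 replicate 2 list peaks with 10 shared, rRNA genes 15 and 16 with 13 shared, and mitochondrial tRNA genes 8 and 8, all shared. miRNA genes had 0 in both lists. Of all peaks in other exons, 66% in the series list and 59.0% in the replicate 2 list were shared. snRNA and rRNA genes have near-identical copies, so the gene named for such a peak is uncertain. The non-coding genes Gm42418 and Gm26917, neighbours on chromosome 17 at the ribosomal RNA locus Rn45s, had 15 and 14 series list peaks and 16 and 15 replicate 2 list peaks, of which 15 and 13 series list peaks were shared. For the same reason their reads may come from other copies. Gm19951, a non-coding gene on chromosome 12, had 5 peaks in each list, all shared and all in introns. Of all intron peaks, 79.4% in the series list and 68.4% in the replicate 2 list were shared. Of the 17 annotated members of the list of long non-coding RNAs of brain, 7 and 4 had peaks, with Rian at 5 and 1, Peg13 at 10 and 0 and Meg3 at 4 and 0. Snhg11, a member that the annotation types as protein-coding, had 5 and 3, all in its 3' UTR.

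Outside genes, the 447 shared series list peaks, the 105 of the series list only and the 233 of the replicate 2 list only lay in different surroundings. Within 10000 nt downstream of a gene's end on the same strand lay 13.2% (10.2 to 16.7), 49.5% (39.6 to 59.5) and 8.58% (5.32 to 12.9). Antisense to an intron lay 28.2%, 15.2% and 30%. A tRNA gene of the RefSeq table, which gives no strand, was overlapped by 8.72%, 21% and 8.15%.

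The Pumilio-type motif was counted in the 3' UTR peaks of each set. It lay in 107 of 315 shared series list peaks (34.0%, 28.8 to 39.5), in 542 of 2249 series list only peaks with sequence (24.1%, 22.3 to 25.9) and in 93 of 311 shared replicate 2 list peaks (29.9%, 24.9 to 35.3). In the replicate 2 list only it lay in 1 of 96 (1.04%, 0.0264 to 5.67). Windows of the same length up- and downstream of the peaks held it in 0% to 2.26%. Of the 94 replicate 2 list 3' UTR peaks with the motif, 93 (98.9%, 94.2 to 100) were shared, against 218 of 313 without it (69.6%, 64.2 to 74.7). In the series list 16.5% of 649 with the motif and 10.9% of 1915 without it were shared. Median widths were 39 and 41 nt with and without the motif in the replicate 2 list, and 54 and 55 nt in the series list. The motif was sought on the transcript's strand only. A match is a run of letters and does not show which protein was bound there.

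**Figure D5:**
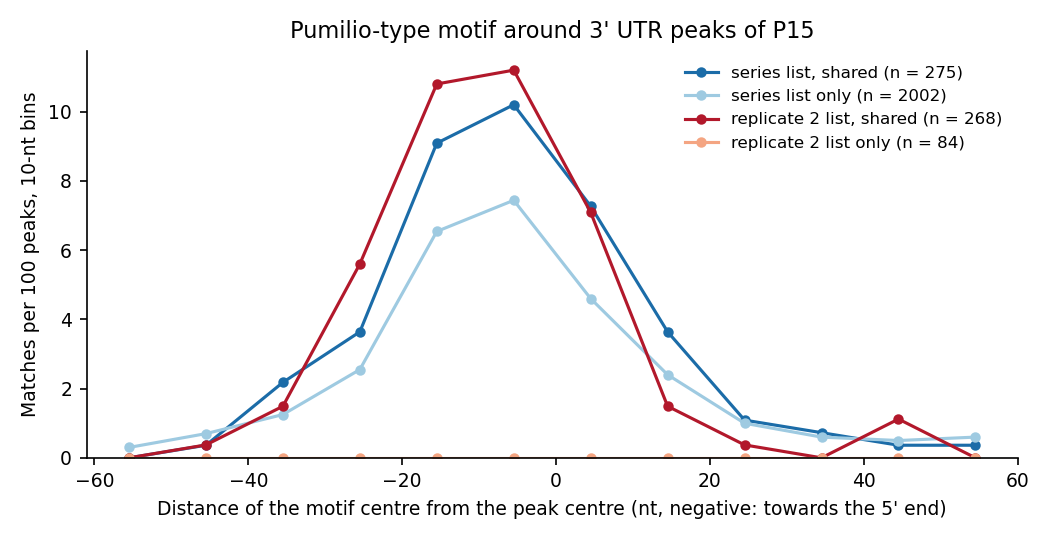
Position of the Pumilio-type motif around the centres of 3' UTR peaks (horizontal axis, nt from the peak centre, negative towards the 5' end) as matches per 100 peaks in 10-nt bins (vertical axis), 1 line per set. Shared peaks of both lists and peaks of the series list only have their highest bin just 5' of the centre, at 10.2, 11.2 and 7.44 matches, and the replicate 2 list only line lies at 0 throughout.

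Genes with 2 motif-bearing shared peaks in each list were Atp2b2, Fam107a, Gabra6 and Zic1. Pnrc1 had 2 shared motif peaks in the series list and 1 in the replicate 2 list. Kcna2, a potassium channel, had 5 motif peaks in the series list, of which 1 was shared. In coding exons the motif was in 0 of 74 shared series list peaks, with an exact upper limit of 4.86%, and in 17 of 1360 series list only peaks (1.25%). The median GC of the 3' UTR peaks was 33.3% in shared replicate 2 list peaks, 35.4% in shared series list peaks, 41.7% in the series list only and 46.9% in the replicate 2 list only. The part of base composition in the motif counts was not tested.

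The bases TGGAAT, the start of the fixed adapter part, began 0 to 5 nt after the 3' end of 50 of 455 shared series list peaks with enough sequence (11%) and of 57 of 3506 series list only peaks (1.63%). In the replicate 2 list they followed 57 of 462 shared peaks (12.3%) and 35 of 241 unshared peaks (14.5%). The contrast was widest in coding exons. There the share was 32.9% of 70 shared series list peaks (22.1 to 45.1) and 1.96% of 1274 series list only peaks (1.27 to 2.88), against 33.3% of 75 shared and 20.2% of 89 unshared replicate 2 list peaks. In 3' UTRs it was 7.64%, 1.45%, 9.72% and 13.2% in the same order of sets. As at Itm2b and Rack1, offsets of 2 or 4 nt made up most of the matches, with 18 peaks each of the 50 shared series list peaks. The match reached 9 or more adapter bases in 9 of those 50 peaks, 7 of them at 9 bases, 1 at 10 and 1 at 13. With the peaks followed by these bases left out of both lists, 19.8% of series list peaks and 65.1% of replicate 2 list peaks were shared. Peaks that could not be searched stayed in. In the series list 1 of 136 intron peaks and 17 of 552 peaks outside genes could be searched. In the replicate 2 list 3 of 158 and 25 of 681 could. For these locations the shares thus cannot show what leaving out such matches would change.

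miRNA seed matches were counted in the same 3' UTR peaks. Of the miRNAs with at least 1000 CPM at P15 (the miRNA's counts scaled to a common library total), 38 seed families had a sequence in the RefSeq table. The most abundant of these were miR-29c-3p with 17.4% of miRNA counts as a family, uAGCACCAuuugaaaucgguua, miR-9-5p with 11.4%, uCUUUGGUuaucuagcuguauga, and miR-125b-5p with 9.29%, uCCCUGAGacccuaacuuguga, with the seed in capitals. Any of the 38 seed matches of 7 bases lay in 12.7% of 251 shared series list 3' UTR peaks, where windows upstream and downstream held 16.3% and 18.3%. In the series list only it was 16.0% beside 17.3% and 16.3%, in shared replicate 2 list peaks 8.30% beside 8.30% and 11.3%, and in the replicate 2 list only 8.75% beside 15% and 12.5%. These counts leave out the most abundant miRNA, miR-124-3p, which had a mean of 337611 CPM, as well as miR-328-3p, miR-185-5p and miR-23b-3p. miR-30b-5p and miR-30d-5p had no sequence of their own in the table, but the miR-30c-5p family, to which they are known to belong, was searched.

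The P7 list gave a readout that the rule did not use. Of the shared peaks, 66.6% of series list peaks (63.6 to 69.4) and 66.0% of replicate 2 list peaks overlapped a P7 peak, against 17.3% of series list only peaks (16.1 to 18.4) and 34.0% of replicate 2 list only peaks (30.1 to 38.1). Within 3' UTRs the shares were 49.5% of shared series list peaks (43.9 to 55.2), 14.5% of series list only peaks (13.1 to 16.0) and 12.4% of replicate 2 list only peaks (6.56 to 20.6). In coding exons they were 59.1%, 21.4% and 36.9%, and outside genes 81.2%, 17.1% and 43.3%. Sites in all 3 lists, 709 series list peaks, lay in introns or outside genes in 63.8% of cases, and 70.8% of these were 20 to 29 nt wide. Whether the P7 list shares libraries or steps with either P15 list is not stated. By gene, 74.4% of genes in both P15 lists had a P7 peak, against 42.5% of those in the series list only and 46.0% of those in the replicate 2 list only.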

How the data were processed

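Target libraries of AGO2-bound RNA were made by ligating adapters with random bases to both RNA ends. The authors deposited 3 peak lists with start, end and strand, and the score in the authors' lists is 0 for each peak, which gives no order of strength. For the calling of peaks, neither program nor threshold is named in the sources used here. The build mm10 and, without a stated role, deepTools 3.1.3, STAR 2.5.2a, cutadapt 2.10, UMI-tools and others are named, per the submitters' processing notes. Peak numbers ran up to 15560 in the series list and 3027 in the replicate 2 list, so 33.2% and 53.7% of the numbered peaks were listed. Depth of the target libraries is unknown here, as the lists give no reads.

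Peaks were placed on GENCODE M21 (mm10), same strand, with 3' UTRs taking precedence over coding exons, then 5' UTRs, further exons and introns, and with coding parts and UTRs from protein-coding transcripts. Sequence came from transcripts in which 1 exon held the peak, for 81.1% of series list and 46.1% of replicate 2 list peaks, and was the same as RefSeq promoter sequence at 26 of 26 peaks that could be compared. miRNA counts, deposited by the authors per mature miRNA (169054 and 94132 in the P15 libraries), served to choose seeds. Intervals are exact (Clopper-Pearson) at 95% and cover counting error only. No test was made between sets. The overlap code was tested on simulated peaks.

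The text names, by rule, the 10 genes with most peaks in each list, in each list only and in shared peaks, up to 4 members per gene list, the longest shared sites and the 5 widest peaks, and, chosen after their values were seen, members of small counts and a few further markers. Some items that the rule selects are not reported here. Planned sequences of the longest shared sites were replaced by sites with a motif. The compared lists, gene lists, motif and adapter counts were chosen with earlier results of these data known. Alternatives covered the overlap rule, strand, width, location order, merged peaks and adapter matches. Python 3.11.15, scipy 1.17.1, numpy 2.4.6, pandas 2.3.3 and matplotlib 3.10.9 were used. Input libraries, P7 miRNA counts and reads were not analysed here.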

Additional observations from a re-analysis of the deposited data

How the results depend on the processing

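Of 57 alternative values of the main shares and of the gene count, 50 stayed within their interval (or, for the gene count, within 1.5 times) and 7 moved. The cause of these moves was not tested. With peaks over 30 nt alone in both lists, 13.4% of series list peaks met the replicate 2 list in place of 20.6%. The 3' UTR share then rose to 41.4% of shared series list peaks, 41.5% of shared replicate 2 list peaks and 24.4% of replicate 2 list only peaks, and the share outside genes fell to 25.3% of shared and 18.9% of unshared replicate 2 list peaks. With coding exons placed before 3' UTRs, 52.8% of series list only peaks were in 3' UTRs in place of 55.1%. The motif without its last 2 bases, chosen after the data had been seen, lay in 54.6%, 47.8%, 47.6% and 9.38% of 3' UTR peaks of the shared series, series only, shared replicate 2 and replicate 2 only sets. Among peaks over 30 nt, also chosen afterwards, P7 overlap was 54.8% and 56.3% of shared peaks and 26.1% of replicate 2 list only peaks. Merging peaks within a list changed none, as no peaks of a list touch. No paired analysis was possible because each list is 1 file without replicates. Without read counts, a site missing from a list cannot be told from a site with too few reads.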
